A study of Mus musculus with 28 samples.

Results

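Chromatin accessibility was examined at 38 genes of Notch signalling, the SOX family and the retinal progenitor programme, out of 21938 protein-coding genes of the GENCODE M21 annotation of the mouse genome (mm10). The genes were chosen by name, with earlier results of these data known, and the choice used no threshold on a value. They comprised 5 SOX factors, 7 homeodomain factors, 5 E protein and ID factors, 3 Notch receptors, 5 Notch ligands, 4 members of the Notch nuclear complex or modifiers, 6 HES and HEY factors and 3 proneural factors. An accessible region was assigned to a gene when it overlapped the gene or the 20 kb on either side. This gave 242 of the 46189 regions of the control list and 332 of the 64883 regions of the db/db list, and none of them fell into the windows of 2 of the genes.

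The study asked which regulators shape the response of Müller cells to diabetes. Müller cells, the principal glia of the retina, were enriched by magnetic-activated cell sorting for the surface protein CD29 after removal of microglia and endothelial cells. They came from mice 6 months old, either controls labelled WT or db/db mice, which carry mutant copies of Lepr, the gene of the leptin receptor, and develop obesity and type 2 diabetes. ATAC-seq uses a transposase that inserts adapters into open chromatin. Of 2 samples per genotype, 1 list of accessible regions per genotype was analysed here, so differences between genotypes could not be checked in replicates and carry no p-value. Sorting for CD29 does not exclude other glia or attached neurons. No treatment was given to either genotype, and Lepr is mutated in every cell of the db/db mouse, so that effects within Müller cells and effects of systemic diabetes cannot be told apart.

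Marker genes of retinal cell types were used to check the label. All 10 Müller cell markers had regions in both lists, 9 of 10 had a promoter region in the control list and 10 of 10 in the db/db list, and each of their 45 control regions had a counterpart in the db/db list. Rod photoreceptor markers were accessible as well, with a promoter region at 8 of 10 genes in the control list and 6 of 10 in the db/db list. Every rod, cone, microglia and astrocyte marker also had a region in both lists, so having a region did not set the Müller cell markers apart. Promoter regions in the control list were found at 3 of 5 cone, 3 of 5 bipolar cell and 2 of 7 amacrine and ganglion cell markers. They were found at 2 of 3 astrocyte, 1 of 5 microglia and 2 of 6 vascular markers. At the rod genes 17 of 48 control regions (35.4%) had no counterpart in the db/db list, compared with 4.16% of all control regions. At the other marker lists, 1 of 11 cone, 1 of 29 bipolar cell and 1 of 8 astrocyte control regions lacked a counterpart. None did among 18 amacrine and ganglion cell, 18 microglia and 16 vascular control regions. With so few regions a single one moves these shares widely. Rod accessibility thus moved with genotype in these 2 lists, and its part in the values given below was not tested.

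Notch receptors are activated by Delta-like and Jagged ligands on neighbouring cells. The released intracellular domain then joins RBPJ and Mastermind-like coactivators to switch on HES and HEY genes, whose products repress proneural genes. In the developing retina this pathway holds cells in the progenitor state, together with SOX2, PAX6, RAX, LHX2, SIX3 and SIX6. SOX2, SOX8, SOX9, LHX2, RAX and HES factors are also known in Müller glia, the last cell type to be born from retinal progenitors. Proneural factors such as NEUROG2 and ATOH7 drive neuronal fates, and forced expression of proneural factors has been used elsewhere to prompt Müller cells to form neurons.

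Sequences upstream of 6 genes are shown as examples, from genes induced by Notch signalling, a receptor gene and proneural genes. They are RefSeq promoter windows on build GRCm38.p6 that run from 250 bases before to 50 bases after a transcription start site (TSS), written along the direction of transcription. Capitals mark TGGGAA or its complement TTCCCA, the core recognised by RBPJ. The Hes5 window (chr4:154960673-154960972, plus strand), the Hey2 window (chr10:30842734-30843033, minus strand) and the Lfng window (chr5:140607091-140607390, plus strand) come from genes induced by Notch signalling in many tissues. The Notch3 window (chr17:32166841-32167140, minus strand) lay almost entirely under a region of the db/db list alone. The Neurog2 window (chr3:127632886-127633185, plus strand) and the Atoh7 window (chr10:63099535-63099834, plus strand) belong to proneural genes that differed in accessibility.
Hes5: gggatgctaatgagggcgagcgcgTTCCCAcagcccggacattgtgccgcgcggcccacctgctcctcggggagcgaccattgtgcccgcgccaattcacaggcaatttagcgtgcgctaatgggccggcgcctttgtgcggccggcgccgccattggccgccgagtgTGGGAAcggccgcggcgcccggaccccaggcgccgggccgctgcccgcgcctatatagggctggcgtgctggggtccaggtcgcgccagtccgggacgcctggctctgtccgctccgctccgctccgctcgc
Hey2: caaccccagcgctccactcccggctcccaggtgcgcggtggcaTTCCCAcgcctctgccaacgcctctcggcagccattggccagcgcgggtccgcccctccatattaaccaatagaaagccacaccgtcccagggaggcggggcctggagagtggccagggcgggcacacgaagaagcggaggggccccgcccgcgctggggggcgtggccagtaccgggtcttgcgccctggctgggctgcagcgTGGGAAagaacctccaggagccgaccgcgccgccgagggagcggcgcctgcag
Lfng: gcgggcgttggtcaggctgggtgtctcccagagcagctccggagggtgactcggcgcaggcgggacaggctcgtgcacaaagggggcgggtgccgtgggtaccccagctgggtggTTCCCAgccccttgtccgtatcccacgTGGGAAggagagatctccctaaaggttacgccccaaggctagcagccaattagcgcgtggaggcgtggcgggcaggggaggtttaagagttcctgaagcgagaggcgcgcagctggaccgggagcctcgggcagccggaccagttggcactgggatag
Notch3: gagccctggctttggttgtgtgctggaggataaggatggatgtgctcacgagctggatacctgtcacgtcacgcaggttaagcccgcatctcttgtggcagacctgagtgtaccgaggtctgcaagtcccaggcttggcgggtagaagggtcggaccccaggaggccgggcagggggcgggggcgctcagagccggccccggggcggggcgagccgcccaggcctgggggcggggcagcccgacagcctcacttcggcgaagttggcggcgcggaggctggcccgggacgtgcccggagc
Neurog2: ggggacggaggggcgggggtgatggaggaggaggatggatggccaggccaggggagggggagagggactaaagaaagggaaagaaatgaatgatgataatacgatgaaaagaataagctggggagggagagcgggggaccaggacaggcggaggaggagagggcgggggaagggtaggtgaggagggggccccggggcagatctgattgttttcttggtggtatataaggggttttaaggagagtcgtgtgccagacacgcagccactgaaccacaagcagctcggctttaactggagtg
Atoh7: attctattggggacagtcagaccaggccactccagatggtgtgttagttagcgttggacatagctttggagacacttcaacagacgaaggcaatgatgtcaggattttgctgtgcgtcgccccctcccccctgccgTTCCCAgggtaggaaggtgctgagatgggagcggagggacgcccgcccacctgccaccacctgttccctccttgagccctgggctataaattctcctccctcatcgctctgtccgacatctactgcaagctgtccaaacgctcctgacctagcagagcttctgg

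The RBPJ core began at positions -226 and -82 of Hes5, where the first transcribed base is 1, with both strings in opposite orientation. It began at -207 and -3 of Hey2, at -135 and -108 of Lfng and at -114 of Atoh7, while the letters were found in neither the Notch3 nor the Neurog2 window. Accessible regions of both lists covered all 300 bases of the Hes5, Hey2, Lfng and Neurog2 windows. The Notch3 window was covered over 295 bases by a db/db region and by no control region, and no region of either list touched the Atoh7 window. In Lfng the string at -108 began within a CACGTG string at -112, so that the strings shared bases. Hes5 also carried 4 copies of GGCGCC, at -123, -106, -69 and -54.

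Across the genes, 41 promoter windows were matched to 30 of the 38 by symbol, and windows for Hes1, Id1, Hey1, Heyl, Insm1, Sox9, Rax and Tcf4 were not used here. Both strands were searched. TGGGAA was present in 11 of the 41 windows (26.8%), compared with 24.5% of 21263 windows of protein-coding genes. The E-box CACGTG, bound by HES, HEY and other bHLH proteins, was present in 4.88% and 7.84%, and the E-box CAGCTG, bound by proneural factors, in 19.5% and 15.6%. ATTGTT, the SOX core, was found in 9.76% and 9.05%, and GGCGCC, bound by SMAD proteins, in 19.5% and 15.3%. TAATTA, the homeodomain core, was in 0 of 41 windows against 4.53% of all. Genes with several windows counted more than once. The 11 windows with TGGGAA came from 9 genes, and 2 overlapping Rbpj windows shared 1 of the strings. With 41 windows a few matches more or less would move each share to the other side of its background, and a match of 6 letters is a description only. The windows were rich in G and C, with a median of 62% against 56.3% for all coding windows and a median of 19 CG dinucleotides against 13. Control regions covered at least part of 65.9% of them and db/db regions 73.2%, compared with 53.7% and 56.4% of all coding windows.

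Most of the 38 genes had an accessible promoter, defined as a region with its summit within 1 kb of any annotated TSS of the gene. This was the case for 34 genes in the control list (89.5%, 95% Wilson interval 75.9% to 95.8%) and for 36 genes in the db/db list (94.7%, 82.7% to 98.5%). Among all protein-coding genes the shares were 58.5% in the control list and 61.6% in the db/db list. Dll4 and Jag2 had no promoter region in either list, and Notch3 and Atoh7 had one in the db/db list alone. Distal regions, with a summit more than 1 kb from every annotated TSS, lay in the windows of 33 genes in the control list and 36 in the db/db list, compared with 53% and 62.1% of all coding genes. These intervals and all others given here cover counting error only.

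The windows of the 38 genes held a median of 7.08 control regions and 8.91 db/db regions per 100 kb, against 2.81 and 3.84 for all coding genes. Many coding genes have no accessible promoter, so the 12842 coding genes with a promoter region in the control list are a closer background, and their median was 4.25 regions per 100 kb. For distal regions alone the median was 3.77 per 100 kb at the 38 genes and 1.49 at those coding genes. Among genes with a window under 60 kb, the 23 genes of the pathway and progenitor lists had a median of 8.22 regions and 4.46 distal regions per 100 kb, while 5425 coding genes with a promoter region had 6.09 and 1.76. Among genes with a window of 60 kb or more the medians for all regions were close. They were 3.49 per 100 kb at 15 of the genes and 3.23 at 7417 coding genes. For distal regions the medians stayed apart, at 2.66 and 1.41. The plot of regions per gene shows that the long genes Sox5, Sox6, Tcf4 and Maml2 held between 13 and 21 control regions, and that small genes such as Neurog2, Id1, Id2 and Id3 held 7 or 8 control regions each.

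**Figure D1:**
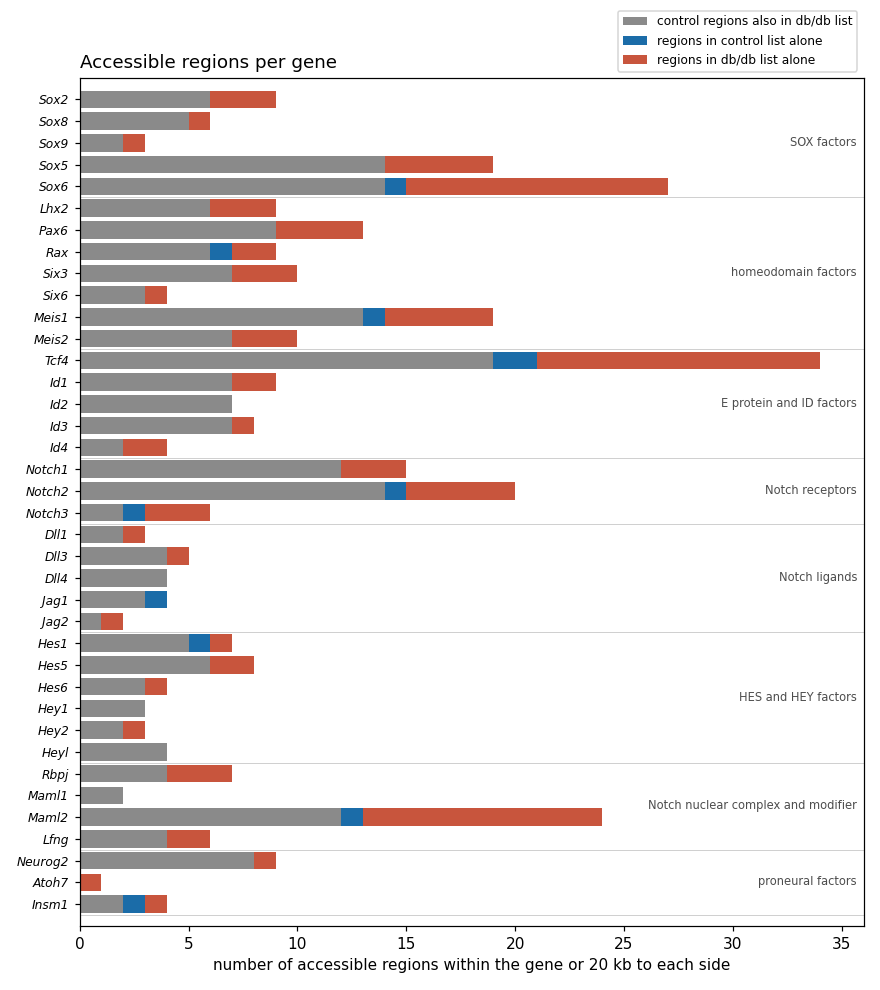
Number of accessible regions (x axis) within each of the 38 genes or 20 kb to each side, by gene group. Grey bars give control regions that overlapped a db/db region, blue bars regions of the control list alone and red bars regions of the db/db list alone; red exceeds blue at most genes, as in the lists as a whole, and Jag1 has 1 control-only region and no db/db-only region.

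Promoter signal was modest at most of these genes. The signal is a value the authors deposited for each peak. Because what it is relative to is not given, it was expressed as a percentile among all regions of the same list, with 100 as the highest. The median promoter stood at percentile 30.5 in the control list and 46.5 in the db/db list, and the median over coding genes with a promoter region was 78.2 and 80.7. In the control list 26 of 34 promoters lay below percentile 50, compared with 22.0% of coding genes. Ranks by the deposited −log10 p were higher. For a gene with several promoter regions the highest value by each rank is given, and the 2 ranks then come from different regions at Pax6, Sox5 and Sox6 in the control list and at Sox5, Sox6, Maml2 and Tcf4 in the db/db list. The median by −log10 p was 81.1 in the control list and 86.1 in the db/db list, close to the 83.9 and 85.5 of coding genes. With both ranks taken on the region of highest signal, the control median by −log10 p was 80.1, and 32 of 34 regions ranked higher by −log10 p than by signal, compared with 57.9% of coding genes. Sox5 and Heyl were the other 2. The Müller cell markers had a similar profile, with a median control promoter percentile of 32.4 by signal and 83.3 by −log10 p. Both ranks are therefore given for part of the promoters below, and the plot of promoter percentiles shows both for every gene with a promoter region. A rank given below without its measure is by signal, and a low one does not imply a low rank by −log10 p.

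**Figure D2:**
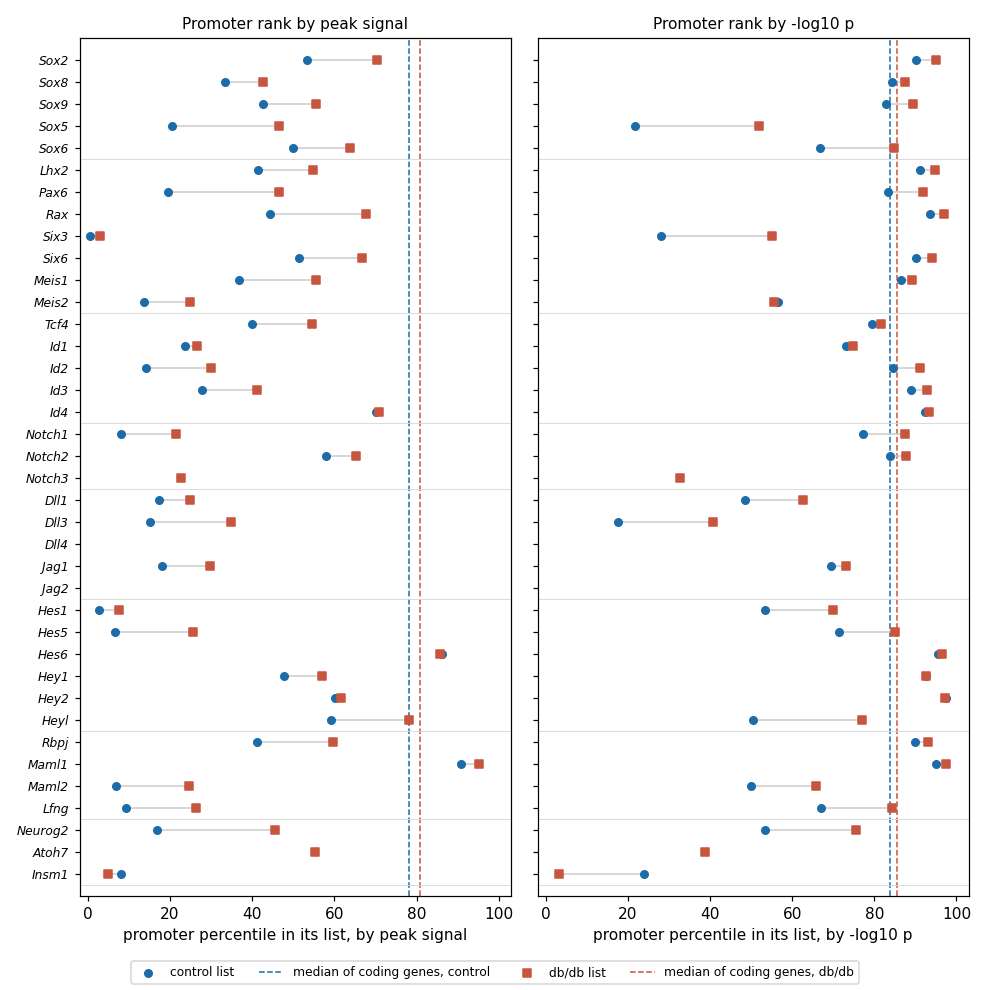
Highest percentile among the promoter regions of each gene (rows) within its list, by signal on the left and by −log10 p on the right, with blue circles for the control list and red squares for the db/db list. Dashed lines are the medians of protein-coding genes with a promoter region (78.2 and 80.7 by signal, 83.9 and 85.5 by −log10 p); most genes lie left of them by signal and move towards or past them by −log10 p, while a row without a point has no promoter region in that list.

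Among the SOX factors, all 5 genes had an accessible promoter in both lists. Sox2, which maintains neural progenitors and is kept on in Müller glia, had 6 control and 9 db/db regions. Its promoter stood at percentile 53.3 by signal in the control list and 70.4 in the db/db list, and at 90.0 and 94.9 by −log10 p. Sox9, needed for gliogenesis, had only 2 control and 3 db/db regions in its window, with the promoter at 42.5 and 55.5 by signal and a second region 9.2 kb upstream at 48.0 and 47.0. Sox8, the close relative of Sox9, had 5 and 6 regions and a promoter at 33.3 and 42.6. In contrast to these short genes, Sox5 and Sox6, which encode SoxD proteins without a transactivation domain, spread 14 and 15 control regions over large introns. The highest of all distal regions near the 38 genes was in an intron of Sox5 (chr6:144445831-144446448 in the control list), at percentile 96.4 in the control list and 98.9 in the db/db list. Of the 26 db/db regions of Sox6, 12 were in the db/db list alone. Over the group 1 of 42 control regions had no db/db counterpart, and 22 of 63 db/db regions (34.9%, 95% interval 24.3% to 47.2%) were missing from the control list, near the 31.3% of all db/db regions.

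The 7 homeodomain genes likewise had promoter regions in both lists. Lhx2, a regulator of eye field formation and of Müller glia, had 6 control and 9 db/db regions and promoter percentiles of 41.4 and 54.7 by signal and 91.0 and 94.7 by −log10 p. Rax, required for eye formation, was similar at 44.3 and 67.7 by signal and 93.6 and 97.0 by −log10 p. Six6 had 3 and 4 regions with a promoter at 51.4 and 66.6. Pax6, expressed in progenitors, amacrine and ganglion cells and weakly in Müller glia, had 9 control regions, of which 4 were at its promoters, and percentiles of 19.5 and 46.6. Its relative in eye development Six3 had the lowest promoter signal of all 38 genes, at percentile 0.431 in the control list and 2.94 in the db/db list, although its window held 7 control and 10 db/db regions and a distal region at 57.7 and 74.9. Meis1 and Meis2, TALE homeodomain cofactors, had 14 and 7 control regions. Their promoters were at 36.8 and 13.5 in the control list and at 55.5 and 24.9 in the db/db list. The highest distal region of the group was downstream of Meis2 (chr2:115855856-115856225), at 80.5 in the control list and 81.3 in the db/db list.

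Tcf4 encodes an E protein that pairs with bHLH factors, and the ID proteins block such pairs. Tcf4 had the most regions of any of the genes, 21 in the control list and 31 in the db/db list. At its many annotated promoters lay 8 control regions, and 13 of its db/db regions were absent from the control list. Over the E protein and ID genes 18 of 59 db/db regions (30.5%) had no control counterpart, near the 31.3% of all db/db regions. Id1, Id2 and Id3 each had 7 control regions within windows of little more than 40 kb. Their 17.0, 16.2 and 16.6 regions per 100 kb lay above the 99th percentile of coding genes. Their promoters were at 23.6, 14.1 and 27.7 by signal in the control list and at 73.1, 84.5 and 88.8 by −log10 p. All 7 regions of Id2 were found in both lists, and a region 13.5 kb downstream of its start (chr12:25083166-25084084) was the highest distal one of the group, at 78.2 and 86.4. Id4 differed from the other ID genes in having 2 control regions, no distal one, and the highest promoter signal of the group at 70.1 and 71.0.

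Of the Notch receptors, Notch1 and Notch2 were rich in regions and Notch3 was not. Notch1 had 12 control and 16 db/db regions and a promoter at 8.10 and 21.4 by signal but at 77.2 and 87.4 by −log10 p. Notch2 had 15 and 19 regions, a promoter at 58.0 and 65.3, and an upstream region at the edge of its window (chr3:97992973-97993915) at 85.9 and 84.0. Notch3, a receptor best known from vascular mural cells, had 3 control regions, none at its promoter. In the db/db list it had 6, with a promoter region at percentile 22.6 by signal and 32.7 by −log10 p that covered the window printed above. Vascular markers as a list had promoter regions at 2 of 6 genes in both lists, and each of their 16 control regions had a db/db counterpart. Of the 27 db/db regions at the vascular markers 11 (40.7%) had no control counterpart, compared with 31.3% of all db/db regions. The part of vascular cells in the Notch3 values was not tested.

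The 5 ligand genes had 15 control regions together, the fewest per gene among the Notch groups. Dll1, which signals from differentiating neighbours to progenitors, had 2 and 3 regions and a promoter at 17.3 and 25.0. Dll3, an inhibitory ligand, had 4 and 5 regions and a promoter at 15.1 and 34.9, with low ranks by −log10 p of 17.7 and 40.7. Dll4, the ligand of endothelial tip cells, had 4 regions in both lists and none at the promoter, its highest being 12.4 kb downstream of its start (chr2:119337416-119338343) at 75.3 and 86.3. Jag1, expressed in glia, had a promoter at 18.1 and 29.7 by signal and 69.4 and 73.1 by −log10 p. It was the one gene with fewer db/db regions (3) than control regions (4). Jag2 had 1 control and 2 db/db regions, none of them at its promoter.

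In the nucleus, Rbpj, the DNA-binding partner of Notch, had 4 control and 7 db/db regions and a promoter at 41.2 and 59.6 by signal and 89.9 and 93.0 by −log10 p. Maml1 had the highest promoter signal of the 38 genes (chr11:50291534-50292850), at 90.8 in the control list and 95.2 in the db/db list, and no distal region. Maml2 had a weak promoter at its 5′ end, at 6.80 and 15.3, a second promoter region in the db/db list alone at 24.7, and 12 control distal regions over its large gene, one of them (chr9:13681500-13682110) at 88.1 and 96.1. Lfng, a glycosyltransferase that tunes the response of Notch to its ligands, had 4 and 6 regions and a promoter at 9.18 and 26.4 by signal and 67.1 and 84.2 by −log10 p. In this group 16 of 38 db/db regions (42.1%, 27.8% to 57.8%) had no control counterpart, 11 of them at Maml2, and the interval includes the 31.3% of all db/db regions. In the other direction 1 of 23 control regions had no db/db counterpart.

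The HES and HEY genes had promoter regions at 6 of 6 genes in both lists, with a wide spread in signal. Hes1, a target of Notch and a repressor of proneural genes, had 6 regions in both lists within 8 kb of its start. All 6 control regions had a signal percentile under 7, its promoter being at 2.61 in the control list and 7.51 in the db/db list, but at 53.3 and 69.9 by −log10 p. Hes5 had a promoter at 6.69 and 25.6 by signal and 71.4 and 84.9 by −log10 p, and distal regions 16.5 and 14.4 kb upstream at 63.6 and 39.3 in the control list and 68.1 and 62.7 in the db/db list. Hes6, which is found in differentiating neurons and antagonises HES1, had a promoter at 86.2 and 85.8, the second highest of all 38 genes in the control list. Hey1 and Hey2 had promoters at 47.8 and 60.1 in the control list and 56.9 and 61.6 in the db/db list, and the Hey2 promoter had the highest rank of the 38 genes by −log10 p in the control list, at 97.5. Heyl was at 59.1 and 78.2, and a region in one of its exons (chr4:123248887-123249742) was the highest distal one of the group at 73.9 and 83.5. Of the control regions 1 of 24 had no db/db counterpart, and of the db/db regions 5 of 29 (17.2%, 7.60% to 34.5%) were missing from the control list, an interval that includes the 31.3% of all db/db regions.

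The proneural genes differed among themselves. Neurog2 had 8 control regions and 9 db/db regions, 18.8 and 21.2 per 100 kb, and its density in the control list was the highest of the 38 genes. All 8 control regions were also present in the db/db list. Its promoter region (chr3:127632351-127633673) was at percentile 16.9 by signal in the control list and 45.6 in the db/db list, and at 53.5 and 75.5 by −log10 p. The highest of its distal regions lay 13.5 kb downstream of its start (chr3:127646025-127646871), at 72.3 and 77.7. Atoh7, which is needed for retinal ganglion cells, had no region in the control list. The db/db list held 1 region there (chr10:63100056-63100619), within an exon of the gene and 0.678 kb from its start, at percentile 55.2 by signal and 38.8 by −log10 p. Insm1, a zinc-finger factor of neurogenesis, had 3 regions in both lists. Its promoter was among the weakest in both, at 8.05 and 4.88 by signal and 24.0 and 3.25 by −log10 p.

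**Figure D3:**
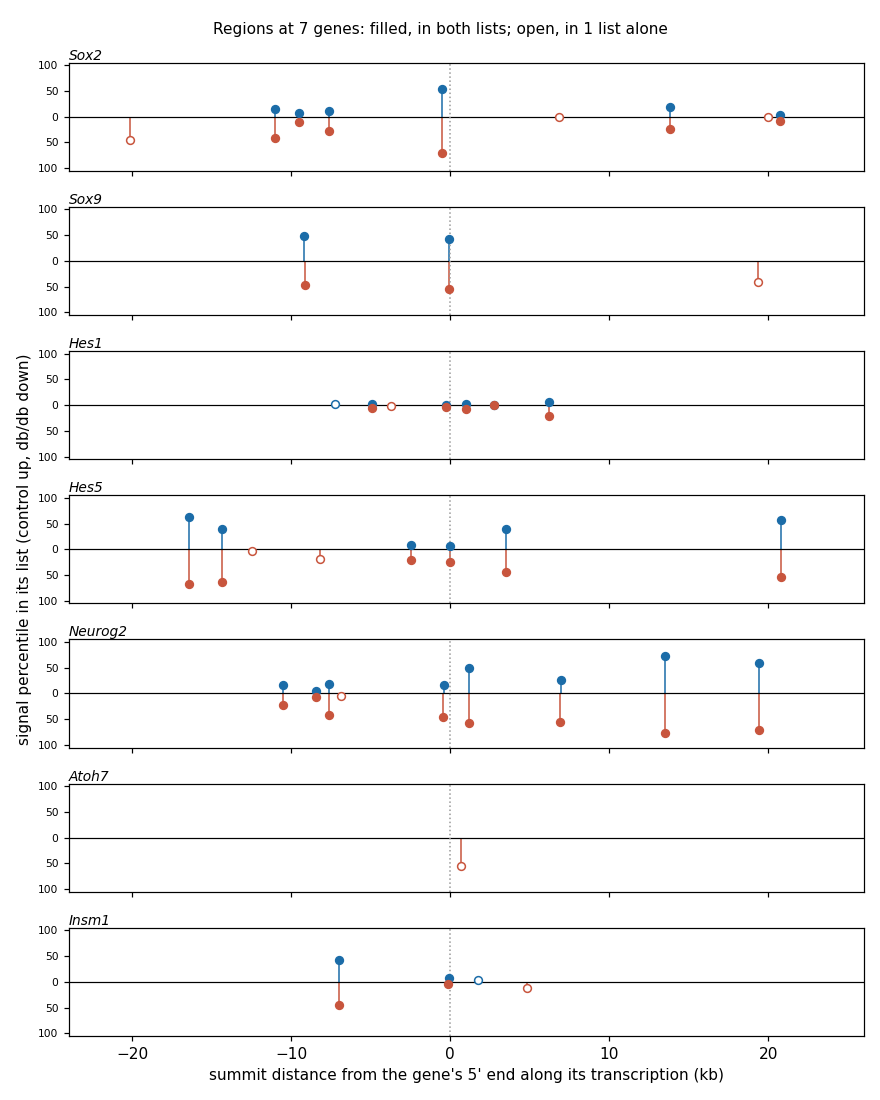
Regions in the windows of 7 genes by the distance of their summit from the 5′ end of the gene in kb (x axis) and by signal percentile (y axis), with the control list upwards in blue and the db/db list downwards in red. Filled points are regions found in both lists and open points regions found in 1 list; Neurog2 has 8 control regions, all filled, Atoh7 a single open db/db region, and the 6 control regions of Hes1 stay under percentile 7.

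The 17 glial and progenitor factors (SOX, homeodomain, E protein and ID genes) were set against the 3 proneural factors. The larger group is mixed in function, since Tcf4 encodes an E protein that pairs with bHLH factors. All 17 glial and progenitor factors had a promoter region in both lists. Among the proneural genes 2 of 3 had one in the control list and 3 of 3 in the db/db list. The third was the region in an exon of Atoh7, which did not touch the Atoh7 window printed above. The median promoter percentile by −log10 p was 84.3 for the glial and progenitor factors and 38.8 for the proneural genes in the control list, and 89.5 and 38.8 in the db/db list. By signal the medians were 36.8 and 12.5 in the control list and 54.5 and 45.6 in the db/db list. In the db/db list the proneural median was the Neurog2 value by signal and the Atoh7 value by −log10 p, with Insm1 lower on both. The ranges overlapped, since Sox5 (21.7 by −log10 p in the control list) and Six3 were below Neurog2 (53.5). Regions per 100 kb had a median of 8.52 for the glial and progenitor factors, within a range of 1.41 to 17.0, and of 6.96 for the proneural genes, whose 3 values ran from 0 at Atoh7 to 18.8 at Neurog2. With 5 kb to each side in place of 20 kb the order turned, at 9.89 for the glial and progenitor factors and 15.3 for the proneural genes. With 3 genes on one side no statement on proneural genes as a class can rest on these values.

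A wider list of 17 other proneural and neurogenic factors was therefore described in the same way. Of these, 5 had a promoter region in the control list and 5 in the db/db list, below the 58.5% and 61.6% of all coding genes. Neurog1, Neurog3, Neurod6, Ascl2 and Olig2 had no control region, and Neurog1 had 1 and Neurod6 had 2 in the db/db list. The median density was 2.07 regions per 100 kb in the control list and 2.37 in the db/db list, compared with 18.8 and 21.2 at Neurog2. Neurod1, which is also expressed in photoreceptors, had a promoter region at percentile 44.6 in the control list and none in the db/db list. The rod markers moved in the same direction, as given above.

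For comparison, 15 other genes of retinal progenitors had promoter regions at 9 genes in the control list and 11 in the db/db list, with a median density of 4.86 and 7.95 regions per 100 kb. Sox3 and Hmga2 were those with a promoter region in the db/db list alone. Of 27 other Notch pathway genes, 23 had a promoter region in both lists. These were mostly the proteases, ubiquitin ligases and adaptors of the pathway. Their median promoter percentile by signal was 77.9 in the control list and 84.5 in the db/db list, near the 78.2 and 80.7 of all coding genes. By −log10 p their medians were 86.5 and 88.2. Aph1a (97.4), Adam17 (94.4) and Numb (94.0) were examples by signal in the control list. The 18 Notch pathway genes among the 38, which are receptors, ligands, nuclear partners and HES and HEY targets, had a median of 18.1 and 32.3 by signal, and of 71.4 and 84.6 by −log10 p. Dtx1, at 5.22 in the control list, was the lowest among the other Notch pathway genes.

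Regions found in 1 list were about as frequent at the 38 genes as in the lists as a whole. Of the 242 control regions 11 overlapped no db/db region (4.55%, 95% Wilson interval 2.56% to 7.96%), compared with 4.16% of all control regions. Of the 332 db/db regions 99 overlapped no control region (29.8%, 25.2% to 35.0%), compared with 31.3% of all db/db regions. Distal regions gave 9 of 156 (5.77%) in the control list against 5.25% of all distal regions, and 80 of 228 (35.1%) in the db/db list against 37.8%. At the genes' own promoters 2 of 58 control regions (3.45%) and 10 of 66 db/db regions (15.2%) were missing from the other list. The shares over all regions near a TSS were 1.98% and 14.2%. The db/db list is longer by far, and when it was reduced by −log10 p to the 46189 regions of the control list, 16.5% of the control regions at the 38 genes and 12.1% of the db/db regions were missing from the other list, compared with 13.1% and 12.9% of all regions. Equal list lengths bring both shares together by construction, and read depths were not analysed here.

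Regions of the control list alone were mostly weak, with a median percentile of 10.5. The 5 highest of the 11 lay in introns. That of Jag1 (chr2:137092907-137093759), 23.1 kb into the gene, had the highest rank at percentile 48.6 by signal and 53.6 by −log10 p, and that of Meis1 (chr11:18964411-18965082) was at 41.0. One at Tcf4 was at 22.2, one of Maml2 (chr9:13499376-13499794) at 20.4, and one beyond the 3′ end of Notch3, in an intron of a neighbouring gene (chr17:32117737-32118414), at 16.6. The other 6 were at Sox6, Notch2, Insm1, Tcf4, Hes1 and Rax. The 99 regions of the db/db list alone had a median percentile of 9.25. The 5 highest were an intronic region of Meis2 (chr2:115923085-115923956) at 67.8, a region 17.5 kb from the start of Hey2 (chr10:30825092-30825439) at 66.5, a region at an internal promoter of Sox6 (chr7:115597331-115598062) at 61.6, a promoter of another gene near Notch3 (chr17:32113376-32114251) at 56.0, and that of Atoh7 at 55.2.

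Shared regions had similar ranks in both lists. For 227 control regions with a single partner in the db/db list, the percentile was higher in the db/db list by a median of 9.38 points (95% interval of the median 8.11 to 11.5), and 209 were higher and 18 lower. Over all 43519 such regions the median was 8.53 (SD 11.2), and 85.3% of them were higher in the longer db/db list. Ranked among shared regions alone, the median difference at the 38 genes was 0.163 points (-0.159 to 0.832), with 123 higher and 102 lower, against 0.0873 for all regions (SD 10.6). Promoters gave 0.234 (-0.469 to 2.47) and distal regions 0.273 (-0.887 to 0.979), compared with -0.756 for all regions near a TSS and 0.830 for all distal regions. The plot of signal ranks shows the points along the diagonal. By group the medians on this scale ran from -2.88 points at the proneural genes to 0.896 at the SOX factors.

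**Figure D4:**
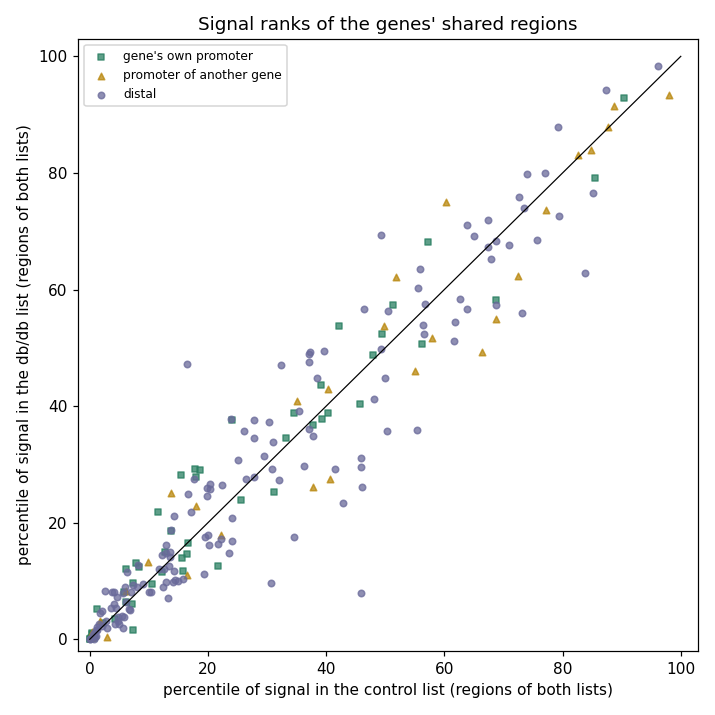
Percentile of signal in the control list (x axis) and the db/db list (y axis) for the 227 control regions at the 38 genes with a single db/db partner, ranked among shared regions; squares are the genes' own promoters, triangles promoters of other genes and circles distal regions. Points follow the line of equal rank, and the Rax region is the farthest below the line and the Notch2 intronic region the farthest above it.

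Single regions with the largest differences in percentile within the whole lists are given as a description. On the scale among shared regions, the difference exceeded 2 SD of all regions of similar rank at 4 of 227 regions of the 38 genes (1.76%). Over all regions the share was 5.15%. The intronic region of Notch2 60.2 kb from its start (chr3:98073469-98074017) was at percentile 18.1 in the control list and 62.6 in the db/db list, 30.8 points higher among shared regions. The Neurog2 region 6.95 kb from its start (chr3:127639811-127641317) was at 25.9 and 54.6, and its promoter at 16.9 and 45.6, which were 13.9 and 12.9 points higher among shared regions and within about 1 SD of regions of similar rank (13.9 and 12.0). On the scale among shared regions an intronic region of Sox5 (chr6:144105497-144106114, 20.1 points higher), a promoter of another gene near Jag2 (14.7 points) and a region 8.45 kb upstream of Meis1 (14.6 points) came before both Neurog2 regions. In the other direction, a region 6.61 kb upstream of Rax was at 48.1 in the control list and 18.6 in the db/db list, which was 37.9 points lower by −log10 p among shared regions and lower by a similar amount by signal. The Rax promoter was at 44.3 and 67.7. A region 12.1 kb upstream of Id1 (chr2:152723711-152724373) was at 32.9 and 21.5, and one beyond the 3′ end of Rbpj (chr5:53672363-53672697) at 84.7 and 74.4, of which the first was 21.1 points lower among shared regions and the second lower by a similar amount.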

How the data were processed

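ATAC-seq of sorted Müller cells from control and db/db retinae was analysed. Peak lists attached to replicate 1 of each genotype were used; replicate 2 and the RNA-seq samples were not analysed here. The authors deposited, for each peak, a score (540 to 1000 in both lists), a signal, −log10 p and −log10 q values, and a summit. The labels give the build mm10. The peak caller, its threshold, what the signal is relative to and whether replicates were pooled are not given in the sources used here, so values were ranked within a list. Moving all summits by 5000 bp lowered the share of control summits within 1 kb of a TSS from 33.3% to 9.31%, a check of the build.

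The 81757 control and 109995 db/db rows were merged where they overlapped, keeping the row with the highest signal. A region was found in the other list when it overlapped one there by at least 1 bp. Genes and TSS came from GENCODE M21. Shares have 95% Wilson intervals and medians have binomial order-statistic intervals, covering counting error only. Python 3.11.15, numpy 2.4.6, scipy 1.17.1, pandas 2.3.3 and matplotlib 3.10.9 were used. The steps were tested on simulated data, where all 20000 planted regions and all 2000 planted absences were found. Promoter windows came from RefSeq.

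The 38 genes, the other gene lists, the markers and the strings were chosen with earlier results of these data known. The regions given in full were the highest promoter region, the highest distal region of each gene group, the 5 highest regions of each list alone, and the 3 shared regions with the largest difference in whole-list percentile in each direction; other genes named from the wider lists were chosen after their values were seen, and so were both promoter ranks on 1 region, the comparison with coding genes by window length and the share of promoters below percentile 50. Alternatives were −log10 q of at least 5, 50% overlap, equal numbers of regions, ranking by −log10 p or among shared regions, other flanks and TSS windows, and genes weighted equally.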

Additional observations from a re-analysis of the deposited data

How the results depend on the processing

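No paired analysis was possible because 1 list per genotype was used, and no alternative could leave out a replicate for the same reason. Of 45 values recomputed under alternatives, 36 stayed within their interval or spread (counts within 1.5 times), 8 moved and 1 turned in direction. The 36 are no measure of stability, because part of them had little room to move. The interval of the proneural density ran from 0 to 18.8, so 15.3 with windows of 5 kb counted as unchanged from 6.96. Counts of 34 and 36 promoters among 38 genes could not rise 1.5 times. Requiring −log10 q of at least 5 left the db/db share at 29.8% and the control count at 34. With lists of equal numbers, the share of control regions missing from the db/db list was 16.5% instead of 4.55%, and that of db/db regions missing from the control list 12.1% instead of 29.8%. In that setting the median difference in percentile of shared regions turned to -1.46 points, against -0.892 for all regions. By construction this setting removes the weak db/db regions. Ranking by −log10 p gave median promoter percentiles of 81.1 in the control list and 86.1 in the db/db list, with a median difference of 12.5 points. With both ranks on the promoter region of highest signal, an alternative chosen after seeing the data, the medians by −log10 p were 80.1 and 86.1. Ranking among shared regions gave 0.163. With windows of 5 kb the density of the proneural genes (15.3) exceeded that of the glial and progenitor factors (9.89). The cause of the gap between ranks by signal and by −log10 p was not tested. Depth was not analysed here and limits every count of regions found in 1 list.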
